A study of Mus musculus with 12 samples.

Results

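Levels of 10 target genes of the transcription factor p53 were examined in mouse cortex in which a DNA methyltransferase gene had been deleted from the oligodendrocyte lineage. The genes were chosen by name, with earlier results of these data known: Cdkn1a, Mdm2, Ccng1, Phlda3, Eda2r, Bax, Bbc3, Sesn2, Trp53inp1 and Aen. All 10 were found among the 23354 gene symbols of the deposited table. Of these, 9 passed a minimum mean of 0.5 FPKM (fragments mapped to a gene, scaled by transcript length and sequencing depth), as did 14075 symbols in all, and Eda2r did not.

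RNA-seq was performed on cortices dissected at postnatal day 16 from 12 mice on a C57BL/6 background, in 4 groups of 3. Dnmt1 conditional knockout (CKO) mice were Olig1cre/+;Dnmt1flox/flox and their littermate controls Olig1+/+;Dnmt1flox/flox. Dnmt3a CKO mice were Olig1cre/+;Dnmt3aflox/flox, with Olig1+/+;Dnmt3aflox/flox littermates as controls. Floxed alleles were thus carried by all mice, and cre, placed at the Olig1 locus, by the CKO mice alone. A CKO mouse therefore also differed from its control in 1 Olig1 allele, and the effects of the deletion and of that allele cannot be told apart. Cre acts in Olig1-expressing cells, whereas the RNA came from whole cortex, so that fewer cells of a type and less RNA per cell cannot be told apart. Read numbers are unknown. The steps between low values gave relative depths of 0.856 to 1 over the 12 libraries.

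The p53 protein is kept low in unstressed cells because its own target Mdm2 marks it for degradation. After DNA damage or other stress, p53 is stabilized and switches on genes that halt the cell cycle, restrain growth signalling or promote apoptosis. It binds a pair of adjoining half-sites in the DNA near these genes. DNMT1 copies DNA methylation onto new strands at replication, and DNMT3A adds methylation de novo.

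Promoter sequences show which of the members carry the recognition sequence close to a start site. RefSeq promoters (GRCm38.p6, 250 bases before to 50 after a start) were matched for 9 of the 10 members, with 13 start sites, and Trp53inp1 had no match. Each was searched on both strands for the p53 consensus of 2 adjoining half-sites of 10 bases, allowing 2 mismatches but none at the core C and G of a half-site. Such a site was found in 2 of the 13 promoters (15.4%), those of Cdkn1a and Ccng1, against 0.326% of all 32851 promoters. Members were picked as p53 targets, so the excess describes the choice of genes. In both sequences, read 5′ to 3′ on the strand of the gene, capitals mark the site, which had 1 mismatch and lay upstream of the annotated gene.
Cdkn1a, chr17:29090913-29090962, plus strand: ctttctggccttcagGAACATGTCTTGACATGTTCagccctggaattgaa
Ccng1, chr11:40755447-40755496, minus strand: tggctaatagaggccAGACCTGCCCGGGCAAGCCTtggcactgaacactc

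The Cdkn1a site covered bases -51 to -32 relative to the start site (chr17:29090928-29090947), and the Ccng1 site bases -195 to -176 (chr11:40755462-40755481). With 3 mismatches allowed, 5 of the 13 promoters (38.5%) and 1.38% of all promoters held a site, the further members being Aen and Bbc3. Their sites are given because these genes carry the next closest matches, and both lay within the annotated span of the gene, downstream of its first annotated base.
Aen, chr7:78895937-78895956, plus strand: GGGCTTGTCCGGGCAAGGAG
Bbc3, chr7:16309486-16309505, plus strand: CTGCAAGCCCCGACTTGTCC

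No full site with up to 3 mismatches was found in these windows for Bax, Mdm2, Phlda3, Sesn2 or Eda2r, which says only that the letters are not in these windows. An exact half-site, a much shorter pattern, was present in 6 of the 13 promoters (46.2%) and in 8.36% of all promoters. Among other genes of the p53 pathway, 3 of 46 promoters (6.52%) held a full site with up to 2 mismatches, namely Gtse1, Rps27l and Trp73, named after their matches were seen.

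The deleted genes and the cre locus were first checked against the labels. Dnmt3a read 31.1, 16.9 and 28.7 FPKM in the Dnmt3a controls and 13.6, 14.2 and 15.4 FPKM in the Dnmt3a CKO (log2 difference -0.78, SE 0.23, limma adjusted p = 0.65). The deleted gene was thus not called in its own line. The library labelled Dnmt3a control replicate 2, at 16.9 FPKM, lay close to the CKO libraries. Several results that use it are also given without it, and where no such value is given the library is included. Dnmt1 read 10.6, 10.2 and 9.78 FPKM in Dnmt1 controls against 7.26, 9.11 and 9.09 FPKM in Dnmt1 CKO (log2 difference -0.27, SE 0.10, limma adjusted p = 0.29). It was lower there without overlap, as were 14.4% of all genes. In the Dnmt3a CKO the Dnmt1 gene was also lower without overlap, as were 5.44% of all genes (log2 difference -0.05, SE 0.03, limma adjusted p = 0.76). Olig1, which marks the lineage and holds the cre, fell in the Dnmt1 CKO from 46.5 ± 4.46 to 20.3 ± 1.81 FPKM (SD, n = 3, log2 difference -1.19, limma adjusted p = 0.0044). In the Dnmt3a line it read 47.4 ± 2.98 FPKM in controls, 49.8 in the doubtful replicate 2, and 33.9 ± 4.33 FPKM in the CKO (log2 difference -0.49, limma adjusted p = 0.65, and -0.45, adjusted p = 0.72, without that replicate).

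The members spanned a wide range of levels in cortex. By mean FPKM over the 12 libraries, a scale per transcript length, the order was Bax (31.1), Ccng1 (15.1), Mdm2 (10.5), Cdkn1a (8.96), Phlda3 (7.89), Aen (7.25), Trp53inp1 (4.10), Sesn2 (3.47), Bbc3 (3.21) and Eda2r (0.11). Trp53 itself, which encodes p53, read 6.48 to 8.18 FPKM over all libraries. Its log2 difference was 0.06 in the Dnmt1 line (SE 0.07, limma adjusted p = 0.76) and -0.01 in the Dnmt3a line (SE 0.08, limma adjusted p = 0.99). The transcript of p53 was therefore present throughout, and its groups overlapped in both lines; p53 protein was not measured.

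**Figure D1:**
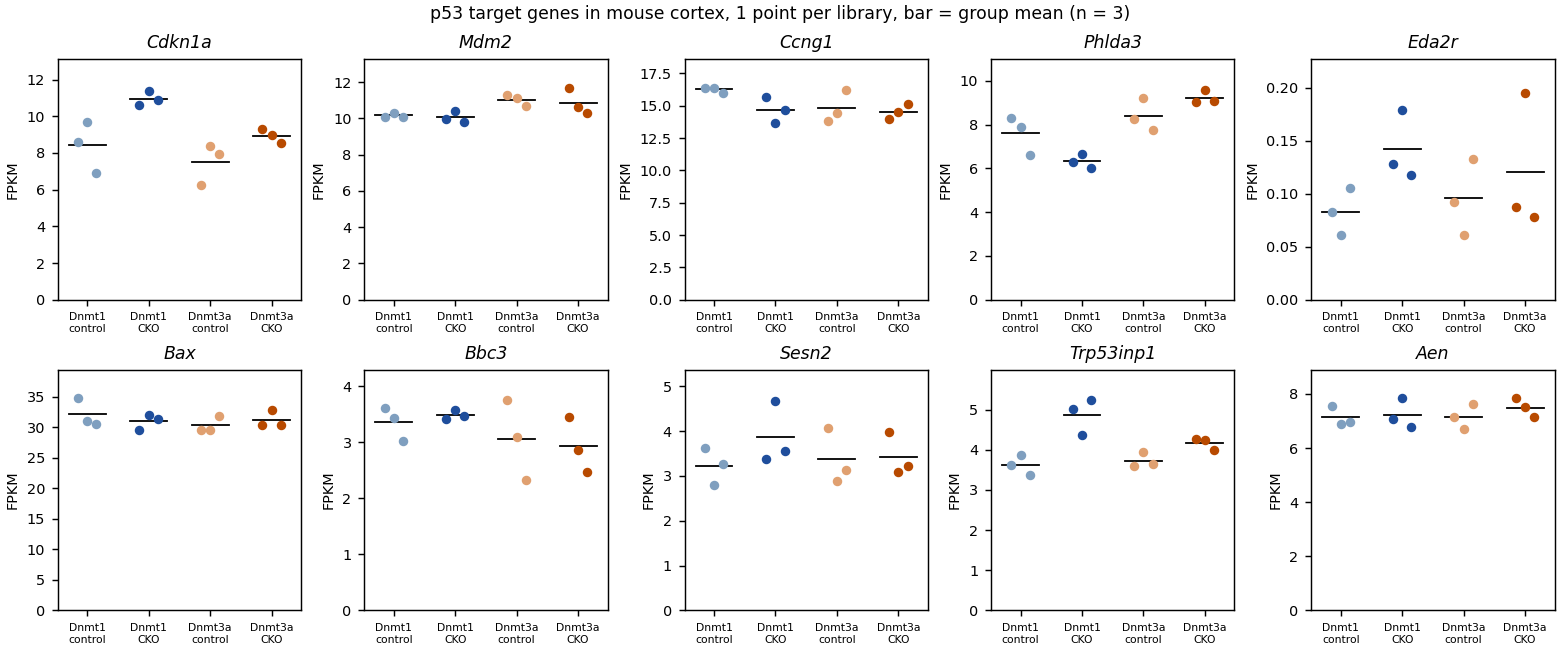
FPKM of the 10 p53 target genes in each library (points) with the mean of each group of 3 (bars), every axis starting at 0. The points of Cdkn1a and Trp53inp1 lie higher in the CKO than in the control group of both lines, whereas those of Mdm2, Phlda3, Bax, Aen, Bbc3 and Sesn2 overlap in both.

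No member passed the 10% FDR in either line. In the Dnmt1 line 0 of the 9 tested members were called by limma, where 3.15% of all genes were, and at an unadjusted p under 0.05 there were 2 higher (Cdkn1a and Trp53inp1) and 2 lower (Ccng1 and Phlda3), against 15% of all genes in either direction. In the Dnmt3a line 0 of 9 were called, where 0.0142% of all genes were, and 0 had an unadjusted p under 0.05, against 7.4% of all genes. The median log2 difference of the 9 was 0.02 in the Dnmt1 line and 0.04 in the Dnmt3a line, beside -0.02 and 0.01 over all genes tested. Of the 9 members 5 were higher and 4 lower in the Dnmt1 line, where 41% of all genes were higher, and 6 were higher and 3 lower in the Dnmt3a line, where 53.1% were.

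Cdkn1a encodes p21, the inhibitor of cyclin-dependent kinases through which p53 arrests the cell cycle (chr17:29090976-29100727, plus strand, 3 exons in its longest transcript; GRCm38). It read 8.62, 9.69 and 6.91 FPKM in Dnmt1 controls and 10.6, 11.4 and 10.9 FPKM in Dnmt1 CKO. Its values in the Dnmt3a line were 6.25, 8.39 and 7.95 FPKM in controls and 9.31, 8.99 and 8.52 FPKM in CKO. All CKO libraries lay above all controls of their own line, although in the Dnmt3a line the nearest values were 8.39 and 8.52 FPKM. The mean was 11.0 ± 0.428 against 8.41 ± 1.40 FPKM in the Dnmt1 line, and 8.94 ± 0.398 against 7.53 ± 1.13 FPKM in the Dnmt3a line (SD, n = 3 each). The log2 difference on the log2(FPKM + 0.1) scale was 0.39 in the Dnmt1 line (SE 0.12, 95% interval 0.09 to 0.69, limma adjusted p = 0.23) and 0.25 in the Dnmt3a line (SE 0.11, 95% interval -0.03 to 0.54, limma adjusted p = 0.66). A two-sided exact permutation test gave p = 0.1 in each line, the smallest that 3 against 3 libraries allow. Ordered by group, Cdkn1a was highest in Dnmt1 CKO, all of whose libraries exceeded the other 9, followed by Dnmt3a CKO, Dnmt1 control and Dnmt3a control, and each of these last overlapped its neighbour. In the annotation 8.49% of the 50-base words of Cdkn1a are shared with other genes, among them AC167363.2 on the opposite strand, which the unstranded library kit cannot separate from it.

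Trp53inp1 encodes a stress-induced nuclear protein that acts with p53 to promote apoptosis (chr4:11156431-11174379, plus strand, 5 exons). It read 3.62, 3.88 and 3.38 FPKM in Dnmt1 controls and 5.02, 4.38 and 5.24 FPKM in Dnmt1 CKO. For the Dnmt3a line the values were 3.61, 3.94 and 3.65 FPKM in controls and 4.26, 4.24 and 3.99 FPKM in CKO. The groups did not overlap in either line, though 3.94 and 3.99 FPKM nearly met in the Dnmt3a line. The log2 difference was 0.42 in the Dnmt1 line (SE 0.09, 95% interval 0.20 to 0.64, limma adjusted p = 0.11) and 0.15 in the Dnmt3a line (SE 0.06, limma adjusted p = 0.65). In the Dnmt1 line this member came close to the 10% threshold and was past it in 3 alternative fits: robust eBayes (adjusted p = 0.041), quantile normalization (adjusted p = 0.091) and a single model of all 12 libraries (adjusted p = 0.01). Other fits took it further from the threshold, to an adjusted p of 0.32 with the replicate block, 0.18 without a filter, and 0.11 to 0.33 when 1 library of the line was left out.

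Non-overlapping CKO and control values with the CKO higher were seen for 2 of 9 members in the Dnmt1 line, against 6.37% of all genes, and for 2 of 9 in the Dnmt3a line, against 7.32%. They were the same members, Cdkn1a and Trp53inp1, so that 2 of 9 were higher without overlap in both lines, a pattern seen in 81 of 14075 genes (0.575%). The lines share no control libraries, but the members and lists were chosen with earlier results of these data known. Counts set beside the share of all genes therefore cannot test for an excess. When CKO was compared with control over both lines with the line as a covariate, a fit added after the data had been seen, 0 of 9 members were called against 0.0995% of all genes (14 genes). Cdkn1a differed by 0.32 (SE 0.09, limma adjusted p = 0.2) and Trp53inp1 by 0.29 (SE 0.06, limma adjusted p = 0.18). Without Dnmt3a control replicate 2 these values were 0.37 (adjusted p = 0.17) and 0.32 (adjusted p = 0.13), and within the Dnmt3a line they were 0.34 and 0.19 (adjusted p = 0.72 each). Without that library 0 of 9 members were called in the Dnmt3a line or on the difference between the lines, and Sesn2 changed sign in the Dnmt3a line (log2 difference -0.07). Values that did not overlap with the CKO higher were then seen for 3 of 9 members in the Dnmt3a line (Cdkn1a, Trp53inp1 and Phlda3), against 13.7% of all genes, and for 2 of 9 in both lines (Cdkn1a and Trp53inp1), against 1.34%. Leaving out Dnmt3a control replicate 1, the library with the lowest Cdkn1a value, brought the Cdkn1a difference in the Dnmt3a line down to 0.13 (adjusted p = 0.86).

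Cell type markers were read in the same libraries. The summed level of 5 myelinating oligodendrocyte markers, of which Mbp was the most abundant, was 1570, 1460 and 1320 FPKM in Dnmt1 controls and 410, 483 and 457 FPKM in Dnmt1 CKO. The Dnmt3a controls summed to 1770, 1960 and 1660 FPKM and the CKO to 1840, 2090 and 1840 FPKM. Myelin genes were thus strongly lower in the Dnmt1 line, with a CKO to control ratio of 0.311, and near level in the Dnmt3a line (1.07). The ratios in the Dnmt1 and Dnmt3a lines were 0.711 and 1.0 for 4 oligodendrocyte progenitor markers, led by Sox10, 0.985 and 1.07 for 5 astrocyte markers, led by Slc1a2, and 1.01 and 1.06 for 5 neuron markers, led by Snap25. For 5 microglia markers, led by Csf1r, they were 0.982 and 1.10, and for 3 endothelium markers, led by Cldn5, 0.832 and 1.04. Among the progenitor markers, Sox10 (log2 difference -0.81, limma adjusted p = 0.0046) and Olig2 (-0.54, adjusted p = 0.063), which mature oligodendrocytes also express, fell in the Dnmt1 CKO. Pdgfra, a progenitor receptor, also fell (-0.30, adjusted p = 0.047), and Cspg4 read 3.0, 2.8 and 3.2 FPKM in controls and 3.02, 3.05 and 2.92 FPKM in CKO, with overlap. Gfap, an astrocyte filament gene that rises in reactive astrocytes, rose in the Dnmt1 CKO (log2 difference 0.45, limma adjusted p = 0.0064). It was the 1 called of 5 astrocyte markers, beside 3.15% of all genes. Aqp4 (log2 difference -0.28, limma adjusted p = 0.14) and Slc1a2 (log2 difference -0.11, limma adjusted p = 0.32) lay below their controls without overlap, as did 14.4% of all genes. Choroid plexus markers, led by Ttr, summed to 2.75 to 414 FPKM between libraries, with ratios of 0.992 and 3.08 in the Dnmt1 and Dnmt3a lines. Blood markers, led by Hbb-b1, summed to 6.20 to 28.1 FPKM, with ratios of 0.508 and 1.37. All 3 were lower without overlap in the Dnmt1 CKO, against 14.4% of all genes. In the Dnmt3a line Hbb-b1 alone of the blood markers was higher without overlap in the CKO, against 7.32% of all genes. No marker value was at 0 in any library, and the part of these cell types in the levels of the members was not tested.

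**Figure D2:**
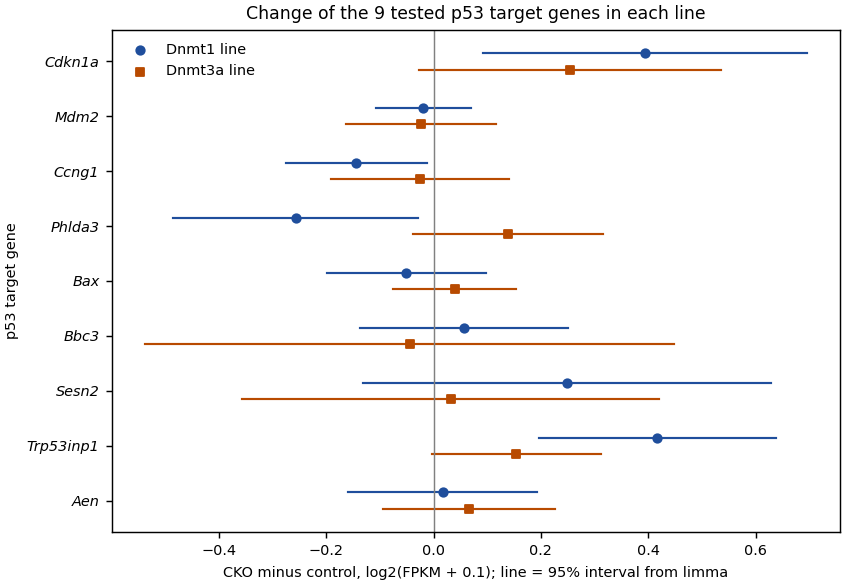
Log2 difference, CKO minus control, of the 9 tested members in the Dnmt1 line (circles) and the Dnmt3a line (squares), with 95% intervals from limma. In the Dnmt1 line the intervals of Cdkn1a and Trp53inp1 lie above 0 and those of Ccng1 and Phlda3 below it, before adjustment over 14075 genes, after which no member was called.

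Feedback on p53 runs through Mdm2, the ubiquitin ligase that marks p53 for degradation, and Ccng1, the cyclin G1 gene whose product acts with Mdm2. Mdm2 read 10.1, 10.3 and 10.1 FPKM in Dnmt1 controls and 9.96, 10.4 and 9.82 FPKM in CKO. The Dnmt3a controls read 11.3, 11.1 and 10.7 FPKM and the Dnmt3a CKO 11.7, 10.6 and 10.3 FPKM. Its groups overlapped in both lines, with a log2 difference of -0.02 in each. The 95% intervals of these estimates were -0.11 to 0.07 in the Dnmt1 line and -0.16 to 0.12 in the Dnmt3a line.

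Ccng1 read 16.4, 16.4 and 16.0 FPKM in Dnmt1 controls and 15.7, 13.7 and 14.7 FPKM in Dnmt1 CKO. Its Dnmt3a controls read 13.8, 14.4 and 16.2 FPKM and its Dnmt3a CKO libraries 14.0, 14.5 and 15.1 FPKM. It was the 1 member of 9 that was lower in the Dnmt1 CKO without overlap, where 14.4% of all genes were, while in the Dnmt3a line the control values enclosed those of the CKO. The log2 difference was -0.14 in the Dnmt1 line (SE 0.05, limma adjusted p = 0.3) and -0.03 in the Dnmt3a line (SE 0.07, limma adjusted p = 0.95). Cdkn1a and Ccng1, which carry the closest matches among the members whose promoters were searched, stood on opposite sides of their controls in the Dnmt1 line. Neither difference was called, and whether the promoter sites bear on these levels was not tested.

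Of the members that act on growth signalling, Phlda3 encodes a protein that competes with the kinase Akt for membrane lipids. It read 8.29, 7.87 and 6.63 FPKM in Dnmt1 controls and 6.28, 6.65 and 6.02 FPKM in CKO. Values of the Dnmt3a line were 8.25, 9.21 and 7.73 FPKM in controls and 9.02, 9.59 and 9.08 FPKM in CKO. The CKO values were mostly below the controls in the Dnmt1 line and mostly above them in the Dnmt3a line, with 1 pair of values crossing in the Dnmt1 line and, in the Dnmt3a line, control replicate 2 alone reaching the CKO values. The log2 difference was -0.26 in the Dnmt1 line (SE 0.09, limma adjusted p = 0.28) and 0.14 in the Dnmt3a line (SE 0.07, limma adjusted p = 0.7), and 0.21 without control replicate 2 (SE 0.06, limma adjusted p = 0.72). The difference between the lines, tested as an interaction, was -0.40 (SE 0.12, 95% interval -0.66 to -0.13, limma adjusted p = 0.2). Without Dnmt3a control replicate 2 this difference was -0.46 (SE 0.12, limma adjusted p = 0.14). It passed the threshold when Dnmt1 control replicate 3, the library with the lowest control value, was left out instead (-0.49, adjusted p = 0.043).

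Sesn2, a leucine sensor that restrains mTORC1, read 3.62, 2.79 and 3.26 FPKM in Dnmt1 controls and 3.37, 4.68 and 3.55 FPKM in CKO. Sesn2 in the Dnmt3a line read 4.07, 2.89 and 3.14 FPKM in controls and 3.98, 3.08 and 3.22 FPKM in CKO. One Dnmt1 CKO library, replicate 2, was well above the others, and all groups overlapped. The log2 differences were 0.25 (95% interval -0.13 to 0.63) and 0.03 (95% interval -0.36 to 0.42), which are wider than those of Mdm2. Without Dnmt1 CKO replicate 2 the Dnmt1 value was 0.107 (adjusted p = 0.76), and without Dnmt1 control replicate 2, the lowest of the controls, it was 0.151 (adjusted p = 0.78).

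Among the other members that act in apoptosis, Bax, which forms pores in the outer mitochondrial membrane, read 34.8, 31.0 and 30.5 FPKM in Dnmt1 controls and 29.6, 32.0 and 31.3 FPKM in CKO. Bax in the Dnmt3a line read 29.6, 29.6 and 31.8 FPKM in controls and 30.3, 32.8 and 30.3 FPKM in CKO. It was the most abundant member and its groups overlapped in both lines, with log2 differences of -0.05 (95% interval -0.20 to 0.10) and 0.04 (95% interval -0.08 to 0.15). In the annotation 8.51% of its 50-base words are shared with Gm45808, a gene on the same strand, a share close to that of Cdkn1a (8.49%).

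Bbc3, which encodes the BH3-only protein PUMA, read 3.61, 3.44 and 3.03 FPKM in Dnmt1 controls and 3.42, 3.58 and 3.47 FPKM in CKO. The Dnmt3a controls read 3.75, 3.10 and 2.32 FPKM and the CKO 3.45, 2.87 and 2.47 FPKM, overlapping over most of their range. Its log2 differences were 0.06 (95% interval -0.14 to 0.25) and -0.04 (95% interval -0.54 to 0.45). Aen, an exonuclease gene that p53 uses in apoptosis, lay between 6.70 and 7.85 FPKM in all 12 libraries, with log2 differences of 0.02 (95% interval -0.16 to 0.19) and 0.07 (95% interval -0.09 to 0.23).

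Eda2r, a receptor for ectodysplasin A2 in the tumour necrosis factor receptor family, was near the limit of detection. It read 0.0831, 0.0612 and 0.105 FPKM in Dnmt1 controls and 0.128, 0.179 and 0.118 FPKM in CKO. Eda2r in the Dnmt3a line read 0.0925, 0.0611 and 0.133 FPKM in controls and 0.0878, 0.195 and 0.0779 FPKM in CKO. The Dnmt1 CKO values lay above their controls, and the Dnmt3a groups overlapped. With the filter lowered to 0.1 FPKM, the log2 difference was 0.40 in the Dnmt1 line (SE 0.15, limma adjusted p = 0.305 over 16358 genes) and 0.15 in the Dnmt3a line (adjusted p = 0.908). Group means were 0.0831 and 0.142 FPKM in Dnmt1 control and CKO, and 0.0954 and 0.12 FPKM in Dnmt3a control and CKO. Eda2r thus reached the lowered filter through its higher CKO values, so the filter depends on the difference tested and no conclusion is drawn from this fit. At this level the added 0.1 FPKM holds down the fold change.

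Across the members, the response to the CKO was not shown to differ between the lines. Of 9 members, 0 passed the interaction test, where 2.14% of all genes did. At an unadjusted p under 0.05 there were 1 in each direction, Trp53inp1 (0.26, SE 0.10, limma adjusted p = 0.39) and Phlda3, against 10.6% of all genes. For Cdkn1a the difference between the lines was 0.14 (SE 0.17, 95% interval -0.24 to 0.52, limma adjusted p = 0.85).

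Genes of the same pathway outside the 10 members were then examined. The list held 43 genes, of which 42 were in the table and 34 passed the filter. In the Dnmt1 line 1 of the 34 rose (Fas) and 1 fell (Hipk2), beside 3.15% of all genes called, and 4 were higher and 4 lower at an unadjusted p under 0.05, beside 15% of all genes. In the Dnmt3a line 0 were called, beside 0.0142% of all genes, with 2 at an unadjusted p under 0.05 (Fdxr higher and Trp53bp1 lower), beside 7.4%. On the difference between the lines 0 were called, beside 2.14% of all genes, with 3 at an unadjusted p under 0.05 (Fas, Hipk2 and Plk3), beside 10.6%. The median log2 difference of the 34 was 0.01 in the Dnmt1 line and 0.02 in the Dnmt3a line.

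Fas encodes a death receptor that triggers apoptosis from the cell surface. It read 0.364, 0.421 and 0.503 FPKM in Dnmt1 controls and 1.10, 1.01 and 0.959 FPKM in Dnmt1 CKO. Fas in the Dnmt3a line read 0.471, 0.864 and 0.718 FPKM in controls and 0.874, 1.09 and 0.839 FPKM in CKO. The Dnmt1 CKO values were all above the controls, and the Dnmt3a groups overlapped by 1 pair of values, through control replicate 2. Without that library Fas was higher without overlap in both lines, as were 1.34% of all genes. The log2 difference was 1.09 in the Dnmt1 line (SE 0.11, limma adjusted p = 0.0096) and 0.42 in the Dnmt3a line (SE 0.21, limma adjusted p = 0.69), and the difference between the lines was 0.67 (SE 0.28, limma adjusted p = 0.42). Without control replicate 2 the Dnmt3a value was 0.59 (SE 0.20, limma adjusted p = 0.72) and the difference between the lines 0.50 (SE 0.26, limma adjusted p = 0.59). Fas was called in 6 of the 6 fits that each left out 1 library, and its level is low, under 1 FPKM on average over all libraries.

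Hipk2 encodes a kinase that phosphorylates p53 to favour apoptosis. It read 9.27, 8.43 and 9.09 FPKM in Dnmt1 controls and 5.95, 6.71 and 7.0 FPKM in Dnmt1 CKO, without overlap. Hipk2 in the Dnmt3a line read 10.8, 9.94 and 9.44 FPKM in controls and 10.2, 9.44 and 9.23 FPKM in CKO, with overlap. The fall in the Dnmt1 line was 0.44 on the log2 scale (log2 difference -0.44, SE 0.07, limma adjusted p = 0.054), and the difference between the lines was -0.38 (SE 0.10, limma adjusted p = 0.12). Without Dnmt3a control replicate 2 the difference between the lines was -0.37 (SE 0.11, limma adjusted p = 0.23). The call was lost in each of the 6 fits that left out 1 library of the Dnmt1 line.

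**Figure D3:**
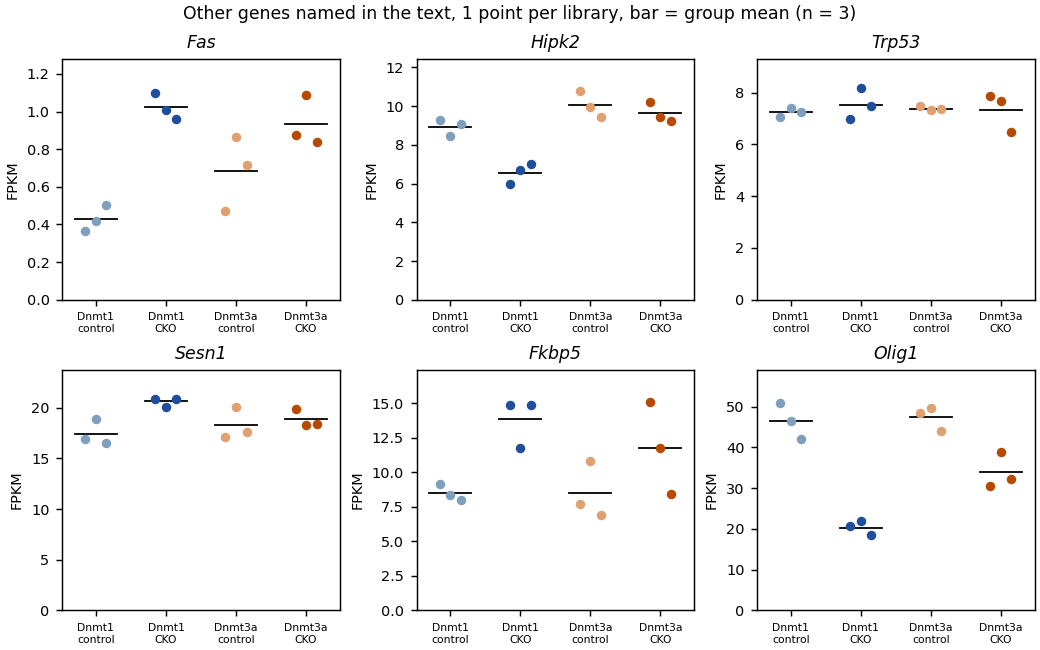
FPKM of Fas, Hipk2, Trp53, Sesn1, Fkbp5 and Olig1 in each library (points) with group means of 3 (bars). Fas is higher and Hipk2 and Olig1 are lower in all Dnmt1 CKO libraries than in their controls, and Trp53 lies between 6.48 and 8.18 FPKM throughout.

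Other pathway genes whose Dnmt1 CKO and control values did not overlap were named after their values were seen. Sesn1, a sestrin gene like Sesn2, read 17.4 ± 1.28 FPKM in Dnmt1 controls and 20.6 ± 0.447 FPKM in CKO (SD, n = 3, log2 difference 0.24, limma adjusted p = 0.13). It was called under robust eBayes, under quantile normalization, in the model of all 12 libraries and without Dnmt1 control replicate 2. Pmaip1, the gene of the BH3-only protein NOXA, read 0.541 ± 0.0842 and 0.843 ± 0.164 FPKM (log2 difference 0.55, limma adjusted p = 0.22). Ddb2, which recognizes damaged DNA, differed by 0.24 (limma adjusted p = 0.21). With Fas these 4 of 34 were higher without overlap, where 6.37% of all genes were, and 4 were lower (Hipk2, Trp53bp1, Plk3 and Polk), where 14.4% of all genes were. In the Dnmt3a line 4 of 34 were higher without overlap (Usp7, Pmaip1, Ddb2 and Fdxr), against 7.32% of all genes, Pmaip1 reading 0.587 ± 0.0319 FPKM in controls and 0.641 ± 0.0161 FPKM in CKO, and 2 of 34 were lower (Trp53bp1 and Btg2), against 5.44%. Of the members 0 of 9 were lower in that line. In both lines 2 of 34 were higher without overlap (Pmaip1 and Ddb2), against 0.575% of all genes. Trp53bp1 was lower without overlap in both lines (log2 difference -0.13 in each, limma adjusted p = 0.19 and 0.65), a pattern that was not counted over all genes. Without Dnmt3a control replicate 2, 10 of the 34 were higher there without overlap, against 13.7% of all genes, and 4 of the 34 in both lines (Sesn1, Pmaip1, Fas and Ddb2), against 1.34%. Of the pathway genes below the filter, Gdf15, a stress-induced cytokine gene, was listed at 0.0549, 0 and 0.0504 FPKM in Dnmt1 controls and read 0.283, 0.179 and 0.167 FPKM in Dnmt1 CKO. With a mean of 0.0746 FPKM, Gdf15 was near the limit of detection and was not tested. The share of genes this low without overlap was not counted. It overlapped in the Dnmt3a line, at 0.0555, 0 and 0.0253 FPKM in controls and 0, 0 and 0.0804 FPKM in CKO, and the other 7 pathway genes below the filter overlapped in both lines.

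**Figure D4:**
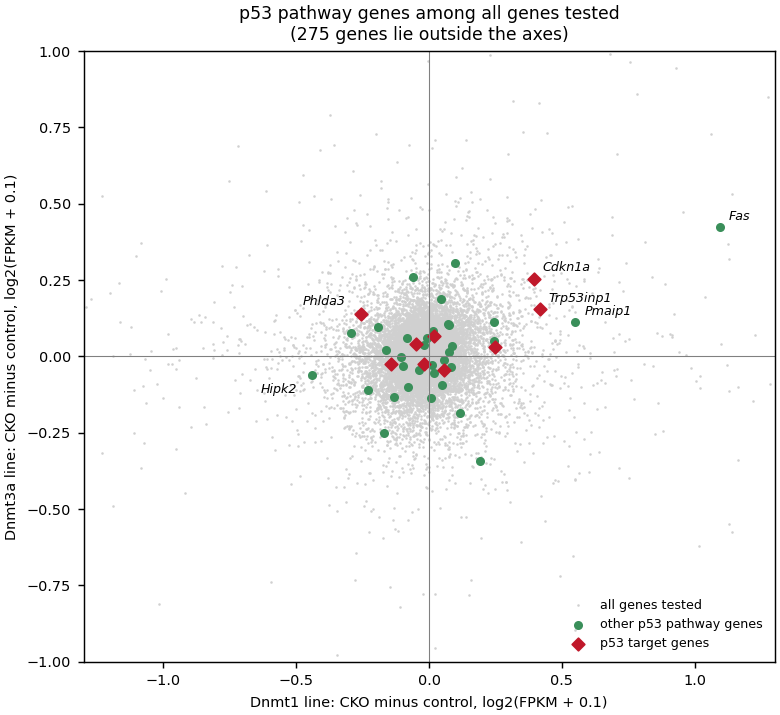
Log2 difference of each gene tested in the Dnmt1 line (horizontal) and the Dnmt3a line (vertical), with the 9 members as diamonds, the 34 other p53 pathway genes as larger circles and all genes in grey; 275 genes lie outside the axes. Cdkn1a, Trp53inp1 and Fas stand in the upper right, whereas most members and pathway genes lie near the centre.

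Genes of other stress responses were read in the same libraries. Of 4 glucocorticoid-responsive genes, Fkbp5, a co-chaperone of the glucocorticoid receptor, was the 1 called in the Dnmt1 line, beside 3.15% of all genes. It read 9.15, 8.37 and 8.03 FPKM in Dnmt1 controls and 14.9, 11.8 and 14.9 FPKM in CKO (log2 difference 0.69, SE 0.11, limma adjusted p = 0.038). Fkbp5 in the Dnmt3a line read 7.69, 10.8 and 6.93 FPKM in controls and 15.1, 11.8 and 8.45 FPKM in CKO (log2 difference 0.46, SE 0.25, limma adjusted p = 0.72). The Fkbp5 groups were apart in the Dnmt1 line and overlapped in the Dnmt3a line through control replicate 2. Without that library they were apart in both lines, the Dnmt3a value being 0.64 (SE 0.25, limma adjusted p = 0.72) and the difference between the lines 0.04 (SE 0.27, limma adjusted p = 0.98). Tsc22d3 of the same list was also higher without overlap in the Dnmt1 line (log2 difference 0.23, SE 0.07, limma adjusted p = 0.22), which made 2 of 4, against 6.37% of all genes. In the Dnmt3a line 0 of 4 were, against 7.32%, and without control replicate 2 there were 3 of 4 (Fkbp5, Sgk1 and Tsc22d3), against 13.7%. Of 5 tested genes of the integrated stress response and 7 immediate early genes, a mark of recent neuronal activity, 0 were called in either line, beside 3.15% of all genes in the Dnmt1 line and 0.0142% in the Dnmt3a line. At an unadjusted p under 0.05 there was 1 in the Dnmt1 line, beside 15% of all genes, and 0 in the Dnmt3a line, beside 7.4%. It was Atf4 of the integrated stress response, which was lower (log2 difference -0.13, limma adjusted p = 0.2). Lists this short hold few calls at such shares, so the counts of 0 say little about these genes. The other 2 genes of that response, Trib3 and Atf3, were below the filter. Trib3, a pseudokinase gene induced by stress, read 0.0803, 0.0936 and 0.0859 FPKM in Dnmt1 controls and 0.589, 0.762 and 0.463 FPKM in Dnmt1 CKO, far apart. In the Dnmt3a controls it read 0.122, 0.12 and 0.0865 FPKM and in the Dnmt3a CKO 0.125, 0.181 and 0.0783 FPKM, with overlap. A fit with the filter at 0.1 FPKM was looked up for Trib3 after its values were seen. The log2 difference of Trib3 was then 1.90 in the Dnmt1 line (SE 0.169, limma adjusted p = 0.00583), where 2.93% of 16358 genes were called. The difference between the lines was 1.79 (SE 0.30, limma adjusted p = 0.0119), where 1.97% were called. Group means of Trib3 were 0.0866 and 0.605 FPKM in Dnmt1 control and CKO, and 0.109 and 0.128 FPKM in Dnmt3a control and CKO. Only the Dnmt1 CKO mean lay well above the lowered filter. The filter thus depends on the difference tested, and no conclusion is drawn from this fit. Atf3 read 0.195, 0.348 and 0.23 FPKM in Dnmt1 controls and 0.352, 0.338 and 0.494 FPKM in CKO, with overlap. The part of these responses in the levels of Cdkn1a and Trp53inp1 was not tested.

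Genes whose pattern over the 12 libraries was most like that of Cdkn1a were ranked by root mean square distance on the log2 scale, each gene centred on its own mean. Of 14074 genes, the nearest were Edn1 (endothelin 1, 0.136), Sdpr (a caveolar protein, 0.138), Trp53inp1 (0.143), Limd2 (0.144) and Nubp2 (0.144). Trp53inp1 was thus the third nearest gene, while the other 7 tested members ranked from 4335 (Bax) to 13000 (Phlda3). This measure used the same libraries as the comparisons, and the distances differ little between neighbouring ranks.

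**Figure D5:**
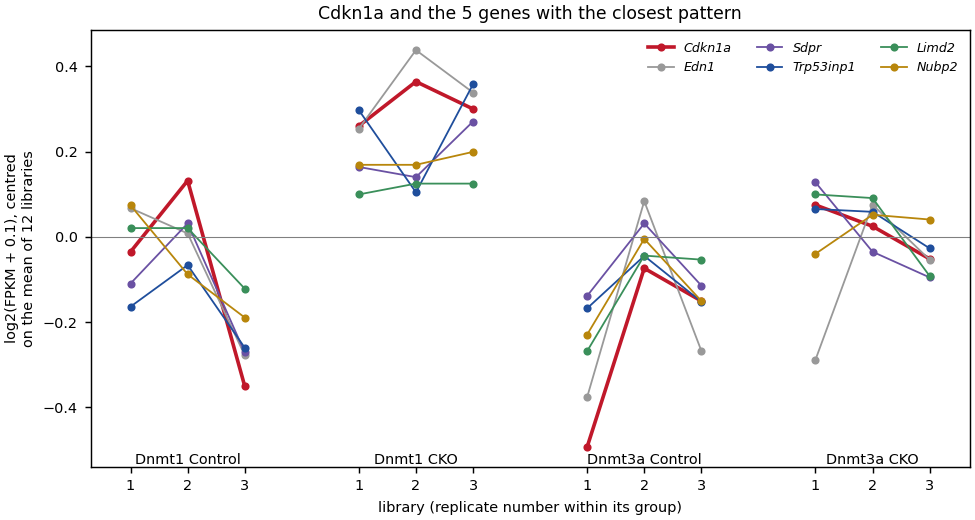
Log2(FPKM + 0.1) of Cdkn1a and the 5 genes nearest to it, centred on the mean of 12 libraries, by library within each group. All 6 genes are above 0 in the 3 Dnmt1 CKO libraries and most of their values in the Dnmt3a controls are below it.

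Libraries also differed by sex-linked transcripts. Dnmt1 control replicate 3, Dnmt3a control replicate 3 and Dnmt3a CKO replicate 3 held no more than 0.0365 FPKM of the Y chromosome gene Ddx3y, against 10.2 to 12.8 FPKM in the other 9. With those 9 libraries alone, a setting added after the data had been seen, 0 of 9 members were called in either line, beside 2.4% of all genes in the Dnmt1 line and 0.0568% in the Dnmt3a line. Cdkn1a then differed by 0.26 in the Dnmt1 line (adjusted p = 0.2) and 0.33 in the Dnmt3a line (adjusted p = 0.57), and Trp53inp1 by 0.37 (adjusted p = 0.21) and 0.17 (adjusted p = 0.6). Both members remained higher in the CKO of each line, and Fas was the 1 other pathway gene called.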

How the data were processed

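The authors prepared polyA RNA libraries with an unstranded kit, aligned the reads to mm10 with TopHat, and deposited FPKM values per gene from Cufflinks for 12 libraries. Duplicate rows (302 of 23850) were removed and 1 row per symbol, that with the highest mean, was kept. CKO and control libraries of each line, and the difference between lines, were compared with limma 3.58.1 in R 4.3.3 on log2(FPKM + 0.1), with a mean-variance trend, over symbols averaging 0.5 FPKM or more, Benjamini-Hochberg adjustment and 10% FDR. The members and lists were chosen with earlier results of these data known. Genes named by rule are the members, the deleted genes, the cre locus, called genes of the lists, and the 5 genes nearest to Cdkn1a. Positions came from GENCODE M21 (GRCm38). Some expressed genes are listed at 0 (120 to 136 rows per library with a mean over 5 FPKM). The alternatives varied the pseudocount, filter, scaling, model, FDR and libraries. A further marker of myelinating oligodendrocytes is not reported here. The procedure was tested on simulated data.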

Additional observations from a re-analysis of the deposited data

Results flagged for a closer look

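Among genes of the lists that passed the minimum mean of 0.5 FPKM, the CKO effect in the Dnmt1 line differed from that in the Dnmt3a line by limma's interaction test for 8 genes, all more negative in the Dnmt1 line. Over all 14075 genes tested, 301 (2.14%) passed this test. For the myelin genes the log2 difference between the lines was -1.79 (Mbp, adjusted p = 1.5e-05), -2.02 (Mag, adjusted p = 1.5e-05), -2.08 (Mog, adjusted p = 2e-05), -2.24 (Mobp, adjusted p = 4e-06) and -1.38 (Cnp, adjusted p = 1.5e-05). For the lineage factors it was -0.86 (Sox10, adjusted p = 0.015) and -0.70 (Olig1, adjusted p = 0.032), and for Slc1a2, the glutamate transporter gene of astrocytes, -0.21 (adjusted p = 0.084). No p53 target gene passed this test. Without Dnmt3a control replicate 2 the Olig1 difference was -0.74 (SE 0.15, limma adjusted p = 0.059), and the other genes named here are given with that library only.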

How the results depend on the processing

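Of 558 alternative log2 differences of the 9 members, 530 kept their direction and their side of the 10% threshold, 4 passed it and 24 changed sign. In the Dnmt1 line 1 member (Trp53inp1) was called under robust eBayes, quantile normalization and the model of all 12 libraries. Of the other pathway genes of that line, where 2 were called, 1 was called at a minimum mean of 1 FPKM (Hipk2, since Fas falls below it), without a filter (Fas), at 5% FDR (Fas) and in libraries with Y chromosome transcripts alone (Fas), 3 under robust eBayes and quantile normalization (Fas, Hipk2 and Sesn1), 5 in the model of all 12 libraries (Ddb2, Fas, Hipk2, Plk3 and Sesn1), and 1 to 2 when 1 library was left out. With the replicate block 0 were called. Same-numbered libraries did not deviate together (correlations of -0.0792 to 0.0362), so the numbers were not taken to pair the mice. For the difference between the lines, 1 pathway gene (Hipk2) was called under robust eBayes, and 0 to 1 members when 1 library was left out (Phlda3, without Dnmt1 control replicate 3).

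All sign changes were of members that were not called. With 1 library left out, the differences that changed sign ranged in the Dnmt1 line from -0.0868 to 0.00875 (Bax), -0.0432 to 0.0635 (Aen) and -0.0143 to 0.11 (Bbc3). In the Dnmt3a line they ranged from -0.0782 to 0.0143 (Mdm2), -0.0735 to 0.0418 (Ccng1), -0.223 to 0.112 (Bbc3) and -0.078 to 0.172 (Sesn2), and for the difference between the lines from -0.0334 to 0.0591 (Mdm2) and -0.0554 to 0.28 (Bbc3). Mdm2 read 0.016 under quantile normalization in the Dnmt1 line. In libraries with Y chromosome transcripts alone, a setting added after the data had been seen, sign changes were Bbc3 (-0.0143) in the Dnmt1 line, Ccng1 (0.0137) in the Dnmt3a line, and Cdkn1a (-0.0725) and Mdm2 (-0.0203) for the difference between the lines. The cause was not tested. Read numbers are unknown, and 3 libraries a group limit the precision.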

Other observations

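Xist, the RNA of the inactive X chromosome, read 49.4, 49.4 and 46.2 FPKM in the 3 libraries without Y chromosome transcripts. In the 3 Dnmt1 CKO libraries, all of which carried Y chromosome transcripts (Ddx3y at 11.1, 10.8 and 10.2 FPKM), it read 1.69, 1.80 and 1.85 FPKM. The 6 remaining libraries with Y chromosome transcripts read 0.0306 to 0.0853 FPKM. The Dnmt1 CKO libraries were thus apart from every other library with Y chromosome transcripts, whereas the Dnmt3a CKO libraries with such transcripts, at 0.0853 and 0.0473 FPKM, were not.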
